A study of Mus musculus with 8 samples.

Results

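The DEAD and DEAH box proteins are RNA helicases, enzymes that use ATP to unwind RNA or to strip proteins from it. They were followed here through 4 stages of mouse male germ cell development. A probe set, the group of short oligonucleotides that reads 1 transcript on the array, was included when it was annotated to exactly 1 gene whose current symbol is Ddx with a number and at most 1 letter, or Dhx with a number. The rule left out 1 gene of that pattern and used no measured value. It gave 112 probe sets of 50 genes, 34 named Ddx and 16 named Dhx, out of 45101 probe sets on the array and 18193 genes with a probe set of their own. Of the 50 genes, 34 had several probe sets, up to 6, and 16 had 1.

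Total RNA of BL/6-129 mice was measured on 8 oligonucleotide arrays, with 2 arrays for each of 4 cell types: spermatogonia of type A, spermatogonia of type B, spermatocytes at pachytene and round spermatids. Spermatogonia divide by mitosis, pachytene is the stage of meiosis at which homologous chromosomes are fully paired, and round spermatids are the haploid cells formed after both meiotic divisions. The labels name no treatment or mutation in any group. Replicate arrays came from separate germ cell preparations, and the sources used here give neither the ages of the animals nor the way the cells were purified. In such bulk samples, fewer cells of a type and less RNA per cell cannot be told apart.

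Helicases act at every step in the life of an RNA. DEAH box members drive the spliceosome through its steps, many DEAD box members work in the nucleolus on ribosome precursors, and others serve mRNA export, translation and decay. Spermatids store many mRNAs before they translate them, and the X chromosome is silenced in pachytene spermatocytes. Ddx25, also called gonadotropin-regulated testicular helicase, is a testis DEAD box protein that exports mRNAs to the cytoplasm, is found in the chromatoid body of spermatids and is needed for spermatids to mature.

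The promoters of Ddx25, Ddx20 and Ddx3x are shown because, among the helicases with a promoter in the RefSeq table used (GRCm38.p6), Ddx25 and Ddx20 had the most positive changes in spermatids against type A and the X-linked Ddx3x the most negative one. The table held 43 of the 49 helicase genes tested, and Dhx58, whose change was more positive still, was not among them. Each window runs from 250 bases before to 50 after the annotated start, 5′ to 3′ on the strand of the gene, at chr9:35558421-35558720 (minus strand), chr3:105687522-105687821 (minus strand) and chrX:13280772-13281071 (plus strand). Capitals mark matches on either strand to the GC box GGGCGG, to TGACG, to its extension TGACGTCA, the cyclic AMP response element that contains it, and to the MYB motif AACNGTT.
Ddx25: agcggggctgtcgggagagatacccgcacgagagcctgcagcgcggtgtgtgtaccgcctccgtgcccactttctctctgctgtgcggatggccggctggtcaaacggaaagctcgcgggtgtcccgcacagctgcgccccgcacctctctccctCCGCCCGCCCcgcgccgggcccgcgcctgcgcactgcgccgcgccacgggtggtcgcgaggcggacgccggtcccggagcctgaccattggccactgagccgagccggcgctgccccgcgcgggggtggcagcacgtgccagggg
Ddx20: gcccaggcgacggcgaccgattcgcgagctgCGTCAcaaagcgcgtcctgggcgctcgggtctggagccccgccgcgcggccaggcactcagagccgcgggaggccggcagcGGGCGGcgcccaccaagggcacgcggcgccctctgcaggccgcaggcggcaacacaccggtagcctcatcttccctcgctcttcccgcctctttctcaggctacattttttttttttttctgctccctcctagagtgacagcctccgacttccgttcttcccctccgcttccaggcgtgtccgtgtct
Ddx3x: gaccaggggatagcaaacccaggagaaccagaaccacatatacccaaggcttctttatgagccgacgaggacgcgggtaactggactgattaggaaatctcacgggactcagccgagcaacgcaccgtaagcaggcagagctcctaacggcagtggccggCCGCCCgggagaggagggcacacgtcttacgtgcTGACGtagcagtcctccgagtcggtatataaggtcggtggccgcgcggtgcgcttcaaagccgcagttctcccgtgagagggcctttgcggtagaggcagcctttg
The Ddx25 window was 75.0% G and C, against a mean of 53.8% over all 32851 windows of that length. It held 2 overlapping GC boxes, a motif found in 35.7% of all windows, and no match to the others. The Ddx20 and Ddx3x windows each held 1 GC box and 1 TGACG, which 20.8% of all windows held. TGACGTCA, in 1.79% of all windows, and AACNGTT, in 4.45%, were not in the windows shown.

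The stage labels were set against lists of marker genes, each summed over the chosen probe sets. The 5 spermatogonial markers summed to 4415 to 4633 on the type A arrays, 2956 to 4729.5 on the type B arrays, 384 to 439.6 on the pachytene arrays and 809 to 836 on the spermatid arrays. The 5 round spermatid markers summed to 70.0 to 70.9, 52.8 to 1455, 1952 to 2463 and 19617 to 23481 in the same order, and the 1455 was type B replicate 2. The 5 pachytene markers summed to 1824 to 2105, 3231.5 to 8682, 14874 to 15567 and 15385 to 15704. Their sum did not separate pachytene cells from spermatids. Of these markers, Piwil1 and Sycp3 read lower in spermatids than in pachytene cells, Ldhc and Pgk2 read higher, and Hspa2 overlapped. The 8682 was again type B replicate 2. That array also read 4896 for the meiotic gene Ldhc, where type B replicate 1 read 28.3. The type B replicates correlated at r = 0.886 over the 14155 genes tested, against 0.962 to 0.981 in the other groups. The 6 peritubular, stromal and endothelial markers summed to 7521 to 10019.9 in type A and 10439.7 to 10497 in type B, against 679.6 to 872 in pachytene cells and 715 to 848 in spermatids. The 6 Sertoli cell markers summed to 2101 to 2856, 1310.3 to 1670.4, 817 to 905 and 223 to 268 from type A to spermatids. The part of somatic cells in the changes described was not tested.

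Of the 50 helicase genes, 49 passed the filter on low values, a signal above the array median on at least 2 of 8 arrays, as did 97 of the 112 probe sets. Ddx60, a factor of the antiviral response, did not pass, with 15.3 to 28.3 on the 8 arrays. For a gene with several probe sets, the one with the highest mean signal stands for it. Changes are differences of log2(signal + 16) with the standard error of the limma fit, 2 arrays against 2. A gene is said to rise or fall at an adjusted p under 0.05. Groups of 2 arrays often do not overlap. Over all genes tested, 37.4% lay wholly higher and 43.1% wholly lower in pachytene cells against type B. The shares were 32.4% and 40.6% in spermatids against pachytene cells, and 35.2% and 50.6% in spermatids against type A. By stage mean, 21 of the 49 genes were highest in pachytene cells, 17 in type A, 6 in spermatids and 5 in type B, while 23 were lowest in spermatids. On the log2(signal + 16) scale, stage means spanned at least 4-fold for 7 genes, Ddx25, Dhx58, Ddx20, Ddx19b, Ddx3x, Ddx54 and Dhx9. They spanned under 1.5-fold for 10 genes, among them the splicing helicases Dhx15 and Ddx23. Neither the stage counts nor the spans were taken over all genes, so they do not set the helicases apart from other genes.

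**Figure D1:**
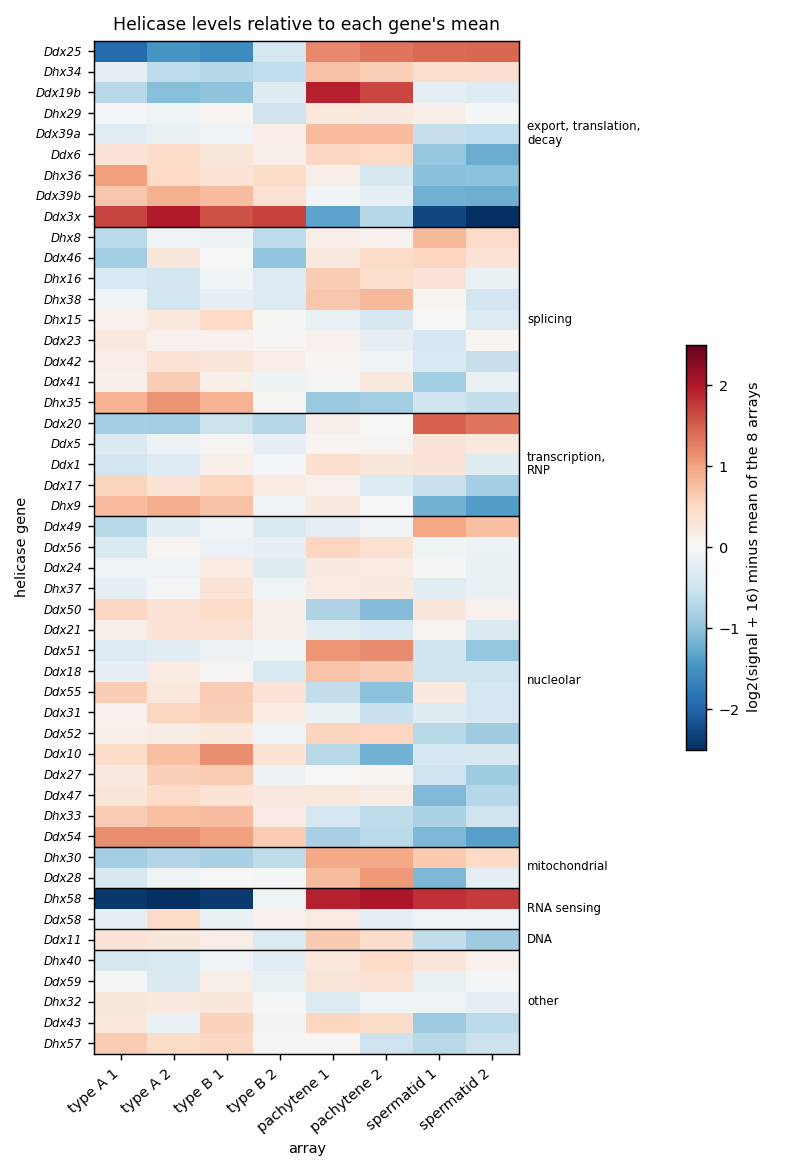
Heat map of 49 helicase genes (rows, grouped by role) on 8 arrays (columns), as log2(signal + 16) minus the mean of the gene over the 8 arrays, with red for higher and blue for lower. Ddx25 and Dhx58 are red on the pachytene and spermatid arrays, Ddx19b on the pachytene arrays, and Ddx3x is blue on the pachytene and spermatid arrays.

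Ddx25 rose between type B spermatogonia and pachytene spermatocytes and was also high in round spermatids. Its single probe set read 304.0 and 422.6 in type A, 396.4 and 884.0 in type B, 2795 and 3068 in pachytene cells and 3249 and 3283 in spermatids. All 4 pachytene and spermatid values lay above all 4 spermatogonial values, and the higher type B value was that of replicate 2. The change was 2.27 ± 0.35 log2 in pachytene cells against type B (adjusted p = 9.80e-04) and 3.13 ± 0.35 in spermatids against type A (8.76-fold, adjusted p = 1.18e-04). Spermatids against pachytene cells read 0.16 ± 0.35 (adjusted p = 0.78), and type B against type A 0.70 ± 0.35 (adjusted p = 0.519). Without type B replicate 1 the difference of type B against type A was 1.26 (adjusted p = 0.0153), and without type B replicate 2 it was 0.14 (adjusted p = 0.925). Leydig cells, the hormone-producing cells between the tubules, are also known to express Ddx25. The 4 Leydig markers measured summed to 630.9 to 1167 on the type A arrays, 1149 to 1497 on the type B arrays, 516.8 to 945.0 on the pachytene arrays and 88.5 to 88.8 on the spermatid arrays. Their part in the Ddx25 signal was not tested.

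The other 48 helicases together showed no such change of level. Their median log2(signal + 16) was 8.14 and 8.35 in type A, 8.42 and 7.998 in type B, 8.49 and 8.35 in pachytene cells and 7.89 and 7.80 in spermatids. Ddx25 minus that median was 0.18 and 0.42 in type A, 0.27 and 1.82 in type B, 2.96 and 3.24 in pachytene cells and 3.78 and 3.89 in spermatids. Since levels of different probe sets cannot be set against each other, only the change of this gap between stages can be read. The gap was wider on every pachytene and spermatid array than on any spermatogonial array.

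To test that difference, Ddx25 minus each other gene was taken on every array and fitted over the stages. For spermatids against type A, the change of Ddx25 was more positive than that of 46 of 48 other helicases and more negative than that of 1, beside 86.9% and 4.74% of the other 14154 genes. For pachytene cells against type B it was more positive than that of 43 of 48 and more negative than that of 0, beside 85.1% and 1.51% of all genes, so the helicase counts lie close to the background. The exceptions in spermatids against type A were Ddx20, at 0.87 ± 0.53 for Ddx25 minus Ddx20, and Dhx58, at -1.18 ± 0.53. All these differences share the Ddx25 values, and the pooled fit gave each the same error and took it as known. With each difference tested on its own spread, a setting chosen after seeing the data, Ddx25 was more positive than 46 of 48 (85.7% of all genes) and more negative than 0 (3.91%) in the first comparison, and than 34 (78.4%) and 0 (0.374%) in the second. There Ddx20 and Dhx58 had adjusted p = 0.165 and 0.0757 in spermatids against type A. For spermatids against pachytene cells Ddx25 was more positive than 10 of 48 (6.49% of all genes) and more negative than 0 (8.51%) with the pooled spread. On their own spread both counts were 0 (0.537% and 2.61%). The count of 10 became 6 without either type A array, 18 without either type B array, 0 or 1 without pachytene replicate 1 or 2, and 2 without either spermatid array. By size of change in spermatids against type A, Ddx25 ranked 2 of 49 helicases, after Dhx58, and 1131 of 14155 genes. With a pseudocount of 64 the order of Ddx25 and Dhx58 turned, at 2.98 and 2.70.

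**Figure D2:**
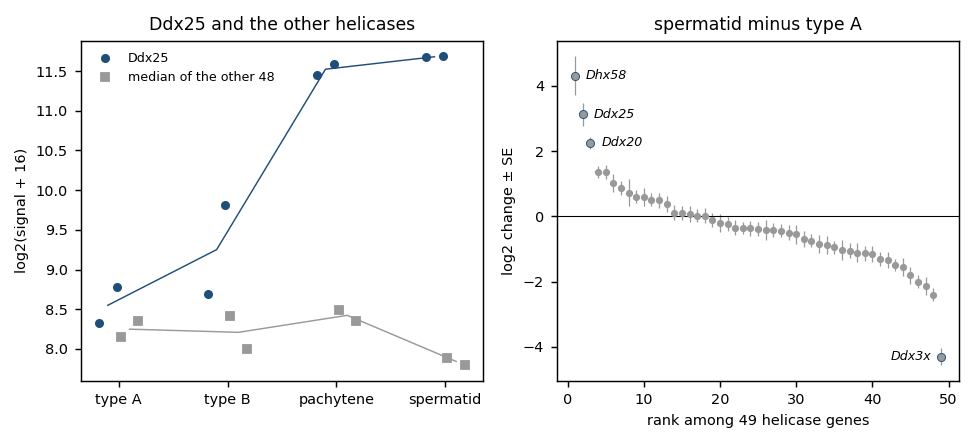
Left, log2(signal + 16) of Ddx25 and the median of the other 48 helicases on each array by stage, with lines through the stage means. Right, log2 change of spermatids minus type A with its SE for the 49 helicases by rank. Dhx58, Ddx25 and Ddx20 lie at 4.31, 3.13 and 2.26 and Ddx3x at -4.30.

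The tested genes whose log2(signal + 16) followed Ddx25 most closely over the 8 arrays were Coil, which encodes the Cajal body protein coilin, Sccpdh, the dynactin subunit gene Dctn2, the testis bromodomain gene Brdt and Tcte1. Their Pearson r with Ddx25 ran from 0.9976 to 0.9991. Coil read 295.3 and 384.4 in type A, 414.6 and 807.4 in type B, 2431 and 2628 in pachytene cells and 2643 and 2652 in spermatids. As for Ddx25, type B replicate 2 held the higher of its type B values. Among the helicases, Dhx58 (r = 0.986), Dhx30 (0.9539) and Dhx34 (0.885) were most alike. These coefficients describe 8 arrays in 4 stages and carry no test.

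Between type B and type A spermatogonia no helicase was called. The limma fit called 0 of 49 in each direction, with 0% of all genes higher and 0% lower. At an unadjusted p under 0.05 it also gave 0 of 49 helicases in each direction. Of all 14155 genes tested, 789 were higher and 594 lower at that limit. Whether the helicases differ from other genes in this was not tested. The helicase changes ran from -0.55 for Dhx35 to 1.28 for Dhx58. Without type B replicate 1, 4 helicases were called, Ddx25 and Dhx58 higher, at 1.26 and 2.43, and Dhx35 and Dhx9 lower, at -0.97 and -0.93, beside 8.18% of all genes higher and 1.4% lower in that fit.

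In pachytene spermatocytes against type B spermatogonia, 15 of 49 helicases rose and 10 fell, beside 25.5% of all genes higher and 32.7% lower. The helicase shares were 30.6% and 20.4%, and the median change was 0.14 log2 for helicases and -0.07 for all genes. Leaving out type B replicate 2 gave 9 that rose and 13 that fell (25.5% and 33.9% of all genes in that fit). Leaving out pachytene replicate 1 gave 7 and 8 (18% and 26.1%), and leaving out pachytene replicate 2 gave 9 and 6 (18.6% and 26.3%). The split also depended on the scale. With arrays centred on 15 ribosomal protein genes, 35 rose and 1 fell (62.7% and 8.32% of all genes), a centring under which the median over all genes moved by 1.27. The helicase median lay 0.21 above that of all genes. The centring cannot change that gap, since it shifts every gene of an array alike. With quantile normalization the gap was 0.18.

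In round spermatids against pachytene cells, 3 helicases rose, Ddx20, Ddx49 and Ddx50, and 15 fell. Over all genes 15.9% were higher and 19% lower, against 6.12% and 30.6% of the helicases, and the medians were -0.37 for helicases and -0.06 for all genes. With the ribosomal centring 3 rose and 13 fell (15% and 10.7% of all genes). Over both steps, 7 genes rose and then fell, Ddx18, Ddx19b, Dhx38, Ddx28, Ddx51, Ddx39a and Ddx11, which is 14.3% of the helicases beside 7.04% of all genes. Of these 7, Ddx19b and Ddx51 kept both calls whichever array was left out, and the rise of Ddx11 was also lost with a pseudocount of 4 (adjusted p = 0.0576) and with no filter on low values (adjusted p = 0.0559). Another 7 rose and did not pass the second test, Dhx30, Ddx25, Ddx56, Dhx16, Dhx40, Dhx34 and Dhx58, beside 14.5% of all genes. Ddx20 was called higher in both steps, 2.04% of the helicases beside 3.9% of all genes. Ddx3x and Ddx39b were called lower in both, 4.08% beside 3.84%.

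In round spermatids against type A spermatogonia, 9 helicases rose and 19 fell, which is 18.4% and 38.8% beside 28.2% and 41.9% of all genes. The medians were -0.38 for helicases and -0.31 for all genes. With the ribosomal centring 22 rose and 4 fell (49.1% and 13.1% of all genes), and the median of all genes moved by 1.05. How many calls over all genes held when 1 array was left out was not counted, only those of helicases. Of the 28 calls, 19 held whichever array was left out, as did 13 of 25 in pachytene cells against type B and 13 of 18 in spermatids against pachytene cells.

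**Figure D3:**
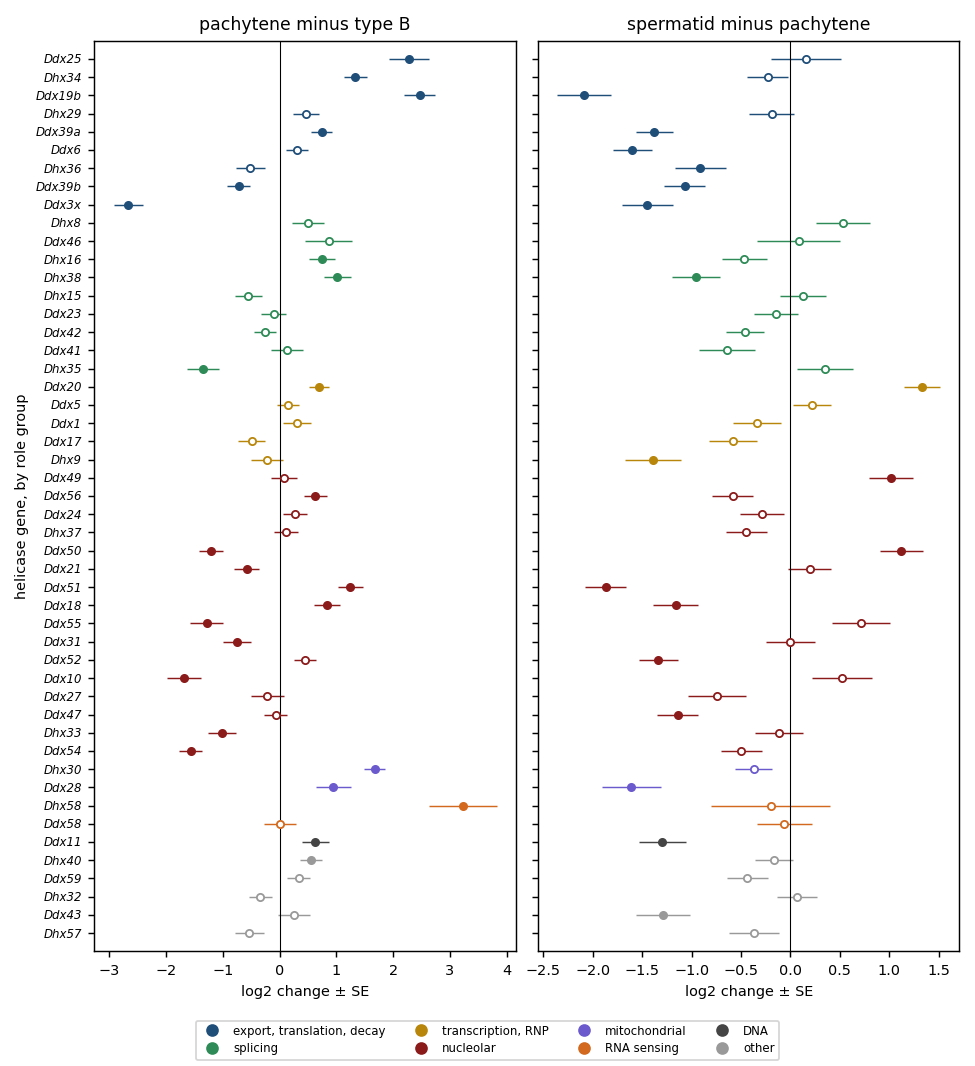
Log2 change with its SE for 49 helicase genes, coloured by role, for pachytene minus type B (left) and spermatid minus pachytene (right), with filled points for an adjusted p under 0.05. In the left panel 15 filled points lie right of 0 and 10 left of it, and in the right panel 3 and 15.

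Among the 9 helicases of mRNA export, translation and decay, 4 rose and 2 fell in pachytene cells against type B, and 0 rose and 6 fell in spermatids against pachytene cells. Over all genes 25.5% were higher and 32.7% lower in the first comparison, and 15.9% and 19% in the second. The group medians were 0.46 and -1.07, and 1.73 and -0.96 with the ribosomal centring, where 6 rose and 1 fell (62.7% and 8.32% of all genes), then 0 rose and 5 fell (15% and 10.7%). Ddx19b, which releases mRNA on the cytoplasmic face of the nuclear pore, read 124.1 and 92.3 in type A, 95.6 and 165.8 in type B, 851.8 and 700.5 in pachytene cells and 173.9 and 165.0 in spermatids. The pachytene arrays stood above all 6 others. It rose by 2.47 ± 0.27 in pachytene cells against type B (adjusted p = 2.63e-04) and fell by 2.09 ± 0.27 in spermatids against pachytene cells (adjusted p = 7.57e-04). Its other probe sets were also highest in pachytene cells, at 262.5 and 288.9 for 1 and 122.8 and 149.8 for the other. The change of Ddx25 minus that of Ddx19b in spermatids against pachytene cells was 2.25 ± 0.36, with an adjusted p = 0.0707 on its own spread and 3.92e-04 on the pooled one.

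Ddx3x, an X-linked factor of translation, took the opposite course. Its change was the most negative of the 49 helicases in both pachytene cells against type B and spermatids against type A. It read 1590.3 and 1955 in type A, 1486 and 1614 in type B, 184.1 and 286.6 in pachytene cells and 86.5 and 63.5 in spermatids. The pachytene values lay below all spermatogonial ones, and the spermatid values below the pachytene ones. The change was -2.67 ± 0.26 in pachytene cells against type B (adjusted p = 1.71e-04), -1.45 ± 0.26 in spermatids against pachytene cells (adjusted p = 0.00345) and -4.30 ± 0.26 in spermatids against type A (adjusted p = 1.08e-05). With the ribosomal centring these were -1.40, -1.34 and -3.25, still called. Both other probe sets of Ddx3x were also lower on every pachytene and spermatid array than on any spermatogonial one. It was the single X-linked helicase tested. D1Pas1, an autosomal retrogene of Ddx3x on chromosome 1, read 106.2 and 219.1 in type A, 218.3 and 386.0 in type B, 1484 and 1728 in pachytene cells and 1289 and 926.5 in spermatids, a rise of 2.40 ± 0.37 in pachytene cells against type B (adjusted p = 0.00102). The sequences are alike, and how far either probe set reads the other gene was not tested.

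The other genes of this group changed in both directions. Ddx6, which represses translation and promotes decapping of mRNA, read 277.5 and 223.0 in spermatids, against 792.6 and 780.9 in pachytene cells, and fell by 1.60 ± 0.20 (adjusted p = 5.39e-04). The close paralogs Ddx39a and Ddx39b, both mRNA export factors, had opposite calls in pachytene cells against type B. Ddx39a read 0.74 ± 0.19 (adjusted p = 0.00921), a call lost without pachytene replicate 1 (adjusted p = 0.0543), and Ddx39b -0.72 ± 0.21 (adjusted p = 0.0178), a call lost without type B replicate 1, pachytene replicate 1 or pachytene replicate 2 (adjusted p = 0.0567 to 0.0988). With the ribosomal centring the change of Ddx39b in pachytene cells against type B turned positive, and the paralogs no longer went opposite ways. In spermatids against type A, Ddx39b read 413.0 and 406.3, against 1558 and 1821, and fell by 2.00 ± 0.21 (adjusted p = 8.44e-05). Dhx34, a helicase of nonsense-mediated decay, read 400.1 and 361.5 in pachytene cells, against 135.4 and 147.6 in type B, and rose by 1.33 ± 0.21 (adjusted p = 9.79e-04). Dhx36, which resolves G-quadruplexes, read 214.8 and 218.3 in spermatids, against 960.0 and 655.1 in type A, and fell by 1.80 ± 0.26 (adjusted p = 4.13e-04).

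**Figure D4:**
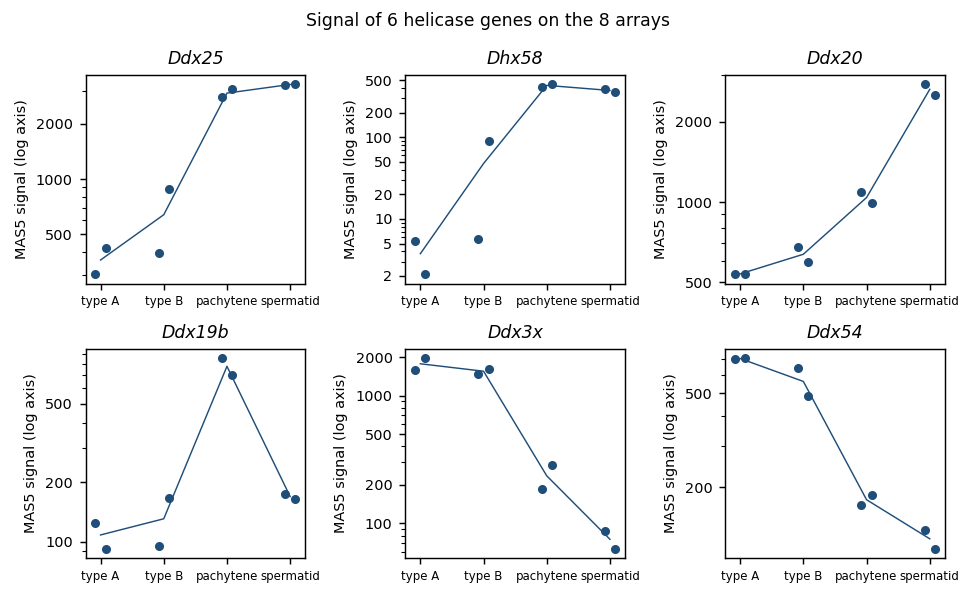
MAS5 signal (log axis) of 6 helicase genes on each array by stage, with lines through the stage means. Ddx25 reaches 2795 and 3068 in pachytene cells and 3249 and 3283 in spermatids, Ddx20 reaches 2764 and 2518 in spermatids, Ddx19b peaks at 851.8 and 700.5 in pachytene cells, and Ddx3x falls to 86.5 and 63.5 in spermatids.

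Among the RNA sensors, Dhx58, also called LGP2, an interferon-regulated relative of RIG-I that binds viral RNA, had the most positive change of the 49 helicases in spermatids against type A, except with a pseudocount of 64, where Ddx25 did. It read 5.4 and 2.1 in type A, 5.7 and 89.8 in type B, 416.2 and 449.4 in pachytene cells and 386.6 and 363.3 in spermatids. The type A values and type B replicate 1 lay below the array medians of 41.5 to 51.9, and type B replicate 2 lay above its own. The change in spermatids against type A was 4.31 ± 0.60 (adjusted p = 3.51e-04), and 5.64 with a pseudocount of 4 or 2.70 with 64. In pachytene cells against type B it was 3.23 ± 0.60 (adjusted p = 0.00236), and 2.08 without type B replicate 1 or 4.37 without replicate 2. A second probe set of Dhx58 read 192.3 and 212.9 in spermatids, against 2.5 and 3.8 in type A, whereas another ran from 42.1 to 67.0 over the 8 arrays. Ddx58, which encodes RIG-I itself, read 70.3 to 127.0, with a change of -0.21 ± 0.28 in spermatids against type A (adjusted p = 0.524).

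Of the 5 helicases of transcription and ribonucleoprotein assembly, 2 rose and 2 fell in spermatids against type A (28.2% and 41.9% of all genes), and 3 rose and 1 fell with the ribosomal centring (49.1% and 13.1%). Ddx20, the gemin3 subunit of the SMN complex that assembles spliceosomal ribonucleoproteins, read 539.9 and 536.7 in type A, 677.3 and 598.1 in type B, 1087 and 992.2 in pachytene cells and 2764 and 2518 in spermatids. No values of different stages overlapped, and spermatids stood highest. It rose by 1.33 ± 0.18 in spermatids against pachytene cells (adjusted p = 9.98e-04) and by 2.26 ± 0.18 against type A (adjusted p = 2.86e-05). Its change in pachytene cells against type B was 0.69 ± 0.18 (adjusted p = 0.0125), lost with quantile normalization (adjusted p = 0.0718) and without pachytene replicate 1 (adjusted p = 0.0805). Dhx9, also called RNA helicase A, read 402.4 and 342.7 in spermatids, against 1093 and 917.2 in pachytene cells and 1604 and 1762 in type A. It fell by 2.13 ± 0.28 in spermatids against type A (adjusted p = 2.73e-04) and by 1.39 ± 0.28 against pachytene cells (adjusted p = 0.00627), the call against pachytene cells being lost without pachytene replicate 1 or spermatid replicate 2 (adjusted p = 0.0512 to 0.0543). The paralogs Ddx5 and Ddx17, coregulators of transcription, read 0.52 ± 0.19 (adjusted p = 0.0411) and -1.14 ± 0.24 (adjusted p = 0.00309) in spermatids against type A. The call of Ddx5 was lost with quantile normalization (adjusted p = 0.199), and Ddx17 read -0.08 with the ribosomal centring.

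Of the 16 nucleolar helicases, which process ribosomal RNA, 3 rose and 7 fell in pachytene cells against type B (25.5% and 32.7% of all genes), and 1 rose and 7 fell in spermatids against type A (28.2% and 41.9%). With the ribosomal centring 9 rose and 0 fell in the first (62.7% and 8.32% of all genes), and 5 rose and 1 fell in the second (49.1% and 13.1%). The group medians were -0.14 and -0.52, and 1.12 and 0.53 with that centring. Ddx54 read 131.7 and 109.8 in spermatids, against 700.7 and 703.0 in type A, a change of -2.40 ± 0.21 (adjusted p = 3.73e-05) that stayed called at -1.34 with the ribosomal centring. Its pachytene values were 168.2 and 185.5, against 636.7 and 485.5 in type B, and it fell by 1.57 ± 0.21 (adjusted p = 5.06e-04). Groups did not overlap in either comparison. Ddx10 read 348.1 and 245.6 in pachytene cells, against 1308 and 728.9 in type B, and fell by 1.69 ± 0.30 (adjusted p = 0.00201). Ddx55 read 28.0 and 16.5 in pachytene cells, against 85.4 and 67.5 in type B, and fell by 1.28 ± 0.29 (adjusted p = 0.00603). With the ribosomal centring, Ddx54 and Ddx10 read -0.30 and -0.42 in pachytene cells against type B (adjusted p = 0.399 and 0.351).

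Several nucleolar members had profiles of their own. Ddx51, which acts on the large ribosomal subunit, read 196.3 and 208.9 in type A, 229.5 and 241.6 in type B, 568.8 and 593.9 in pachytene cells and 176.8 and 122.3 in spermatids. The pachytene arrays stood above all others, with a rise of 1.25 ± 0.21 against type B (adjusted p = 0.00154) and it fell by 1.87 ± 0.21 in spermatids against pachytene cells (adjusted p = 3.86e-04). Ddx50 had the reverse shape by its chosen probe set. It read 892.0 and 797.6 in type A, 856.6 and 681.0 in type B, 363.6 and 283.6 in pachytene cells and 766.4 and 672.0 in spermatids. Its pachytene values lay below all others, with changes of -1.21 ± 0.22 in pachytene cells against type B (adjusted p = 0.002) and 1.12 ± 0.22 in spermatids against pachytene cells (adjusted p = 0.00504). The first of these read 0.06 with the ribosomal centring. Both other tested probe sets of Ddx50 also fell in the first, by 1.72 and 1.20 (adjusted p = 0.0193 and 0.0384, limma over all probe sets). Neither was called in the second, at 0.76 and 0.0075 (adjusted p = 0.3 and 0.992). The latter probe set was lower in spermatids against type A, at -1.61 (adjusted p = 0.00874). Ddx21, the nucleolar paralog of Ddx50, read -0.58 ± 0.22 in pachytene cells against type B (adjusted p = 0.0496), and 0.68 with the ribosomal centring. In spermatids against pachytene cells Ddx21 read 0.20 ± 0.22 (adjusted p = 0.549). Its call was lost with a pseudocount of 4 (adjusted p = 0.0605), with no filter (adjusted p = 0.058), with the replicate number as a block (adjusted p = 0.054) and without type A replicate 1, type A replicate 2, type B replicate 1, pachytene replicate 1 or pachytene replicate 2 (adjusted p = 0.0614 to 0.183). Another tested probe set of Ddx49 read 0.96 in pachytene cells against type B (adjusted p = 0.00621, limma over all probe sets). In spermatids against pachytene cells that probe set read 0.16 (adjusted p = 0.626). By its chosen probe set, Ddx49 read 631.3 and 542.0 in spermatids, against 267.2 and 295.8 in pachytene cells and 187.9 and 254.7 in type A. It rose by 1.36 ± 0.22 against type A (adjusted p = 8.36e-04) and by 1.02 ± 0.22 against pachytene cells (adjusted p = 0.00893), the call against pachytene cells being lost without pachytene replicate 1 or spermatid replicate 1 (adjusted p = 0.0648 to 0.0662).

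Of the 9 spliceosomal helicases, 2 rose and 1 fell in pachytene cells against type B, 0 rose and 1 fell in spermatids against pachytene cells, and 1 rose and 3 fell in spermatids against type A. The shares over all genes were 25.5% and 32.7%, 15.9% and 19%, and 28.2% and 41.9%. With the ribosomal centring 7 rose and 0 fell, 0 rose and 0 fell, and 4 rose and 0 fell, beside 62.7% and 8.32%, 15% and 10.7%, and 49.1% and 13.1% of all genes. Dhx38, which acts at the second step of splicing, read 160.7 and 177.7 in pachytene cells, against 79.0 and 72.2 in type B. It rose by 1.02 ± 0.24 (adjusted p = 0.00732). Its other tested probe set was not called there, at 0.73 (adjusted p = 0.076, limma over all probe sets). Nor was that probe set called in spermatids against pachytene cells, at -0.10 (adjusted p = 0.849). Dhx35 read 57.9 and 61.8 in pachytene cells, against 242.4 and 128.1 in type B, and fell by 1.35 ± 0.28 (adjusted p = 0.00416). In both genes the groups did not overlap. Dhx35 also read 84.5 and 77.1 in spermatids, against 241.0 and 293.7 in type A, and fell by 1.54 ± 0.28 (adjusted p = 0.00143). Dhx8, which releases the spliced mRNA, read 579.7 and 460.0 in spermatids, against 196.4 and 303.8 in type A, and rose by 1.03 ± 0.27 (adjusted p = 0.00969), a call lost without type A replicate 1 or spermatid replicate 1 (adjusted p = 0.0682 to 0.0695). The motors Dhx15 and Ddx23 read -0.34 ± 0.24 and -0.37 ± 0.23 there (adjusted p = 0.225 and 0.176).

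Both mitochondrial helicases, which act on the mitochondrial ribosome, rose in pachytene cells against type B, where 25.5% of all genes were higher. Dhx30 read 773.1 and 845.0 in type A, 797.9 and 898.5 in type B, 2755 and 2729 in pachytene cells and 2236 and 1998 in spermatids. The pachytene and spermatid values lay above all spermatogonial ones, with a rise of 1.68 ± 0.18 in pachytene cells against type B (adjusted p = 2.62e-04) and of 1.37 ± 0.18 in spermatids against type A (adjusted p = 2.98e-04). Ddx28 read 54.2 and 69.3 in type A, 76.9 and 74.3 in type B, 142.8 and 180.5 in pachytene cells and 26.5 and 63.0 in spermatids. Its rise of 0.95 ± 0.30 (adjusted p = 0.0264) was lost without type B replicate 1, type B replicate 2, pachytene replicate 1 or pachytene replicate 2 (adjusted p = 0.0512 to 0.138), and it fell by 1.61 ± 0.30 in spermatids against pachytene cells (adjusted p = 0.00427).

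Outside these roles, Ddx11, a DNA helicase of sister chromatid cohesion, read 86.4 and 67.7 in spermatids, against 229.1 and 194.5 in pachytene cells, and fell by 1.29 ± 0.23 (adjusted p = 0.00363). Ddx43, a helicase known for its expression in testis and tumours, read 285.1 and 205.5 in type A, 358.6 and 217.4 in type B, 345.6 and 327.3 in pachytene cells and 117.1 and 140.7 in spermatids. The spermatid arrays were the lowest. It fell by 1.29 ± 0.27 in spermatids against pachytene cells (adjusted p = 0.00777), a call lost without pachytene replicate 1 or spermatid replicate 1 (adjusted p = 0.0519 to 0.0585).

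Probe sets of 1 gene did not always move alike. Where a gene with several probe sets was called, all had the same sign for 12 of 13 genes in pachytene cells against type B, 11 of 12 in spermatids against pachytene cells and 12 of 16 in spermatids against type A. The exceptions were Ddx17, Ddx5, Dhx30 and Dhx36. For Ddx5, 1 of 6 probe sets read 179.8 and 137.3 in spermatids, against 865.7 and 967.3 in type A, while the chosen one read 4891 and 4632, against 3054 and 3614. For Dhx36, 1 of 3 probe sets read 353.5 and 327.7 in spermatids, against 195.9 and 231.7 in type A, while the chosen one fell. In both genes 1 probe set was called higher and another lower in spermatids against type A.

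A gene that did not pass by its chosen probe set could pass by another. This held for 6 genes in pachytene cells against type B, 2 in spermatids against pachytene cells and 5 in spermatids against type A. Ddx46, a helicase of early spliceosome assembly, read 0.86 ± 0.42 in pachytene cells against type B by its chosen probe set (adjusted p = 0.11). Of its 5 probe sets, 1 read 265.7 and 246.7 in pachytene cells, against 53.5 and 48.0 in type B, and another read 529.3 and 455.0, against 113.1 and 157.1. The groups did not overlap in either. They rose by 2.03 and 1.76 (limma adjusted p = 3.73e-04 and 5.01e-04, over all probe sets), and read -1.92 and -1.55 in spermatids against pachytene cells. Over the 97 probe sets, 27 rose and 18 fell in pachytene cells against type B (22.2% and 31.5% of all probe sets), and 3 rose and 28 fell in spermatids against pachytene cells (12.7% and 18%).

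**Figure D5:**
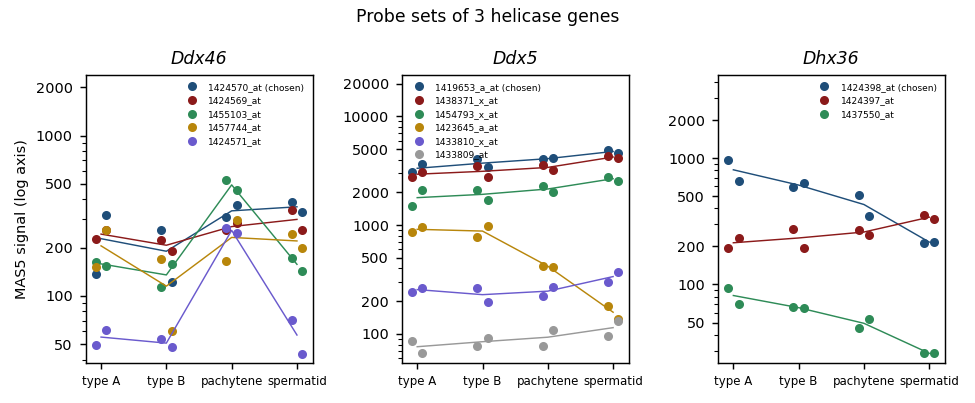
MAS5 signal (log axis) of the tested probe sets of Ddx46, Ddx5 and Dhx36 on each array by stage, with lines through the stage means. A pair of Ddx46 probe sets peaks in pachytene cells at 529.3 and 455.0 and at 265.7 and 246.7, 1 of Ddx5 falls to 179.8 and 137.3 in spermatids, and 1 of Dhx36 reaches 353.5 and 327.7 there.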

How the data were processed

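The authors deposited linear intensity values, 1 for each probe set on each array. The submitters' processing notes name MAS5, and no source used here gives its version. Trimmed by 2% of probe sets at each end, every array had a mean of 125, so a change is always relative to the other transcripts of the same array. Array medians lay between 33.7 and 51.9. Precision is limited by the number of arrays. Of 45101 probe sets, 64 were controls, 34945 had 1 gene, 932 several and 9160 none in the platform annotation. Symbols were updated through a GRCm38.p6 gene table (34741 probe sets matched, and 204 kept the annotated name).

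Each gene took its probe set with the highest mean, and 14155 genes above the array median on at least 2 of 8 arrays were tested. Values on the log2(signal + 16) scale, which understates the change of low genes, were fitted with limma 3.58.1 in R 4.3.3, with 1 mean per group over all 8 arrays and eBayes without trend. Tests were two-sided, with Benjamini-Hochberg adjustment over all genes and a threshold of 0.05. All groups share 1 estimate of the spread for each gene, so a gap between type B replicates widens the errors of that gene in every comparison. The p-values measure the spread between separate preparations of each stage, per the labels' design text. Ddx25 was compared with every other gene by the same fit on per-array differences.

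Genes given with values on each array were Ddx25, Ddx19b, Ddx3x, Ddx43 and, in each comparison, the 6 called helicases with the largest changes each way. Further helicases were named within their role groups. Ddx3y and Ddx19a were not analysed here. The helicases, role groups and other lists were chosen with earlier results of these data known. Alternatives were pseudocounts of 4 and 64, no filter, quantile normalization, centring on 15 ribosomal protein genes, every probe set by itself, eBayes with trend, a replicate block, and leaving out each array.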

Additional observations from a re-analysis of the deposited data

How the results depend on the processing

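Of 196 helicase changes (49 genes in 4 comparisons), leaving out 1 array at a time turned the direction of 0 calls, took 82 calls below the threshold and brought 27 above it, with 1459 values on the same side. The ranges of calls without 1 array were 7 to 16 higher and 6 to 13 lower in pachytene cells against type B, 2 to 3 and 11 to 17 in spermatids against pachytene cells, 6 to 10 and 14 to 20 in spermatids against type A, and 0 to 2 and 0 to 2 in type B against type A. Ddx25 was then more positive than 34 to 46 other helicases and more negative than 0 to 1 in pachytene cells against type B, 0 to 18 and 0 to 3 in spermatids against pachytene cells, and 46 to 47 and 0 to 1 in spermatids against type A. The other alternatives left 1276 values on the same side, 34 weaker, 40 stronger and 22 reversed. A pseudocount of 64 gave Ddx25 as more positive than 6 helicases in spermatids against pachytene cells and more negative than 0 in spermatids against type A, a pseudocount of 4 as more negative than 1 in pachytene cells against type B, quantile normalization as more positive than 1 in spermatids against pachytene cells, and no moderation of the spread as more positive than 0 there and more negative than 0 in spermatids against type A. Every probe set by itself gave 27 higher and 18 lower in pachytene cells against type B (22.2% and 31.5% of all probe sets). It gave 28 lower in spermatids against pachytene cells (18%), and 16 higher and 35 lower in spermatids against type A (23.3% and 43.1%). More features were counted in that setting. Centring on ribosomal protein genes gave 35 higher and 1 lower in pachytene cells against type B and 22 higher and 4 lower in spermatids against type A. All 22 reversals came from that centring, by whose construction every gene shifts alike. In pachytene cells against type B they were Ddx50 0.057, Dhx32 0.92, Ddx47 1.20, Ddx27 1.05, Ddx42 1.01, Dhx33 0.25, Ddx23 1.16, Ddx31 0.51, Ddx39b 0.54, Ddx21 0.68 and Dhx9 1.05. In spermatids against type A they were Ddx50 0.83, Ddx41 0.17, Ddx42 0.31, Ddx31 0.37, Ddx52 0.11, Ddx58 0.84, Ddx39a 0.69, Ddx11 0.0065, Ddx43 0.22, Dhx37 0.94 and Ddx10 0.035. The replicate numbers did not pair the arrays, since deviations of same-numbered arrays correlated at -0.175 to 0.169 over 6 pairs of groups. With a replicate block, 14 helicases rose and 9 fell in pachytene cells against type B, 4 and 16 in spermatids against pachytene cells, 8 and 20 in spermatids against type A and 0 and 0 in type B against type A, and Ddx25 was more positive than 44, 12 and 46 other helicases. A count in this section without a share of all genes beside it shows only how the helicase calls moved between settings. Where signals lie far below the array median, as for Dhx58 on the type A arrays and type B replicate 1, the pseudocount sets the size of a change.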

Other observations

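Other RNA helicases, without a Ddx or Dhx symbol, were followed from a list of 22 genes, of which 19 were tested. In pachytene cells against type B, 6 rose and 4 fell (25.5% and 32.7% of all genes), with a median change of -0.20. In spermatids against pachytene cells 0 rose and 8 fell (15.9% and 19% of all genes), with a median of -0.63, beside -0.06 for all genes. In spermatids against type A 3 rose and 12 fell (28.2% and 41.9% of all genes), with a median of -0.92, beside -0.31 for all genes. Tdrd12 and Tdrd9, helicases of the piRNA pathway that silences transposons, rose by 1.48 ± 0.28 and 1.10 ± 0.23 in pachytene cells against type B (limma adjusted p = 0.00234 and 0.00399). Mov10l1, also on the list, read -0.36 ± 0.28 there (limma adjusted p = 0.292). In spermatids against type A, Mov10l1 fell by 1.44 ± 0.28 (limma adjusted p = 0.00193). Tdrd9 read 219.3 and 185.1 in spermatids, against 712.4 and 683.0 in pachytene cells, and fell by 1.71 ± 0.23 (adjusted p = 8.18e-04, limma).

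Dicer1, the nuclease that makes microRNAs and carries a helicase domain, read 44.9 and 40.9 in pachytene cells, against 470.5 and 304.7 in type B, and fell by 2.75 ± 0.26 (adjusted p = 1.69e-04, limma). The translation initiation helicases Eif4a1 and Eif4a2 were called lower at different steps. Eif4a1 read 937.2 and 1202 in pachytene cells, against 3066 and 2775 in type B, and fell by 1.44 ± 0.20 (adjusted p = 5.87e-04, limma). Eif4a2 read 671.4 and 662.9 in spermatids, against 1929.9 and 1891 in pachytene cells, and fell by 1.496 ± 0.18 (adjusted p = 4.90e-04, limma). Whether these 2 genes differ in either step was not tested. The ribosomal centring moves every gene up by 1.27 in pachytene cells against type B. Calls of the genes on this list under that centring, or without 1 array, are not given here.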
